A study of Homo sapiens with 12 samples.

Results

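The genes described here are the core machinery of DNA replication and of S phase: 39 symbols, taken from a fixed list by name, each of which matched 1 Ensembl ID among the 20286 gene IDs of the deposited table. They were read in HK-2 cells, a human proximal tubule line from the kidney that was immortalised with papillomavirus oncogenes. The cells received recombinant S100A8, recombinant S100A9 or the recombinant S100A8/S100A9 preparation, each at 5 mg/mL as the labels print the dose, and were harvested after 48 h; control cells received the corresponding amount of phosphate-buffered saline (PBS). Every group carried the wild-type genotype, grew in DMEM with fetal bovine serum and was represented by 3 libraries of mRNA, 12 in all. The labels do not say that the libraries of a group came from separate cultures. The p-values set differences between groups against the spread between libraries, which may therefore be technical.

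Replication begins when CDC6 and CDT1 load the MCM2-7 ring onto origins, and it starts once CDC45 and the GINS complex turn that ring into an active helicase. PCNA, a sliding clamp placed by the RFC loaders, then holds the polymerases on the template while RPA coats the exposed strand. Most of these genes are transcribed at the G1/S transition by E2F factors, which RB restrains until it is phosphorylated. The viral oncoproteins used to immortalise HK-2 cells target p53 and RB, which limits the line as a model of cell cycle control in the tubule.

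To show what the members share in sequence, the 250 bases before each RefSeq gene start (GRCh38.p14) were searched on both strands for the E2F words TTTCCCGC, TTTCGCGC, TTTGCCGC and TTTGGCGC. Of the 39 members 33 had a promoter in the table, and MCM4, MCM5, GINS4, DSCC1, POLD3 and RPA2 were not analysed here. An E2F word stood in 13 of the 33 promoters (39.4%), against 761 of 27305 promoters of all genes (2.79%) and 3.75% of the promoters of genes in the table. The other replication and S phase genes (51 tested) had one in 5 of 41 promoters (12.2%). The 13 belonged to MCM3, MCM6, MCM7, CDT1, GINS2, PCNA, RFC3, POLA1, POLA2, POLE, LIG1, TYMS and UHRF1, and the word nearest the start began between 9 and 174 bases before it, with a median of 53. Mitotic genes carried another signature: the words TTTGAA and TTCGAA, the core of the CHR element, stood in 15 of 27 promoters of the mitosis list (55.6%), in 2 of the 33 replication promoters (6.06%) and in 14.6% of all promoters. An E2F word was found in 1 of the 27 mitotic promoters (3.7%). The word CCAAT was frequent in both lists, in 57.6% of replication and 74.1% of mitotic promoters, against 33% of all. GC content differed beside these shares, with a median of 68.4% in the replication promoters, 62.8% in the mitotic ones and 58% over all. A match is a description of letters in this window, not evidence of binding.

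Promoters of 3 replication genes and, for contrast, a pair of mitotic ones are printed 5′ to 3′ as the 160 bases that end at the base before the RefSeq start. Capitals mark E2F words in the first 3 and the CHR word in the last pair. PCNA, the clamp, lies at chr20:5126623-5126782 (minus strand), and its word begins 59 bases before the start. MCM6, a subunit of the helicase ring, lies at chr2:135876444-135876603 (minus strand); it has 4 overlapping matches at 2 places, which begin 152 and 90 bases before the start. POLE, the catalytic subunit of the leading-strand polymerase, lies at chr12:132687343-132687502 (minus strand), with a word 18 bases before the start. CCNB2, a mitotic cyclin, lies at chr15:59104986-59105145 (plus strand). PLK1, a mitotic kinase, lies at chr16:23678729-23678888 (plus strand), and both mitotic words begin 29 bases before the start.
PCNA: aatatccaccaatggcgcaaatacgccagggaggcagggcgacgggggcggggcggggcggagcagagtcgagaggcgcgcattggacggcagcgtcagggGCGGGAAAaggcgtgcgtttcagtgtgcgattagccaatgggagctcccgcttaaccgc
MCM6: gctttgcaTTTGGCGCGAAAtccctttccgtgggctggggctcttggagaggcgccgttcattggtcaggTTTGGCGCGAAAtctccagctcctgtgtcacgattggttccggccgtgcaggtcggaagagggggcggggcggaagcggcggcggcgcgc
POLE: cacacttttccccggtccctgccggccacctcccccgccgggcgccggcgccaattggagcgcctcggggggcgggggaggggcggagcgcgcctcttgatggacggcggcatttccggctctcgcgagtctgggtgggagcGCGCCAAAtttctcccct
CCNB2: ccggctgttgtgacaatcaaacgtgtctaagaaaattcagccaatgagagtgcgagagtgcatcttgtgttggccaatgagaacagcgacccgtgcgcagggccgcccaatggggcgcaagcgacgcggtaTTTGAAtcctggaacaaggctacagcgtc
PLK1: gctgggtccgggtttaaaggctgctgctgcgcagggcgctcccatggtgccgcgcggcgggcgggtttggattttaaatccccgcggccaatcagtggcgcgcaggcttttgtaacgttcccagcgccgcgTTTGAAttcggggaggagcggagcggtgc

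Library totals ran from 15882193 to 20748334 counts, with 15483 to 15653 genes above 0. Of 17 epithelial and proximal tubule markers 11 reached a mean of 1 FPKM, a value scaled to gene length and library total. KRT8 stood at 287, PAX8 at 122 and EPCAM at 77.9 FPKM, but CDH1 at 0.77 and ANPEP at 0.06. The transport genes of the mature tubule LRP2, CUBN, AQP1 and SLC34A1 lay below 0.1 FPKM on average. Endothelial markers reached 1 FPKM in 0 of 4 cases and fibroblast markers in 2 of 5 (LUM at 33.0 and COL1A1 at 2.28 FPKM). Leukocyte markers did so in 1 of 5 (CD68 at 63.7 FPKM), with PTPRC at 0.0042 FPKM.

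The replication genes were well expressed in each library. Together they took between 0.423% and 0.441% of all counts, their mean levels ranged from 10 to 229 FPKM with a median of 30.4, and 38 of the 39 lay above the median of all 13512 genes tested. The smallest count of any member in any library was 287, for POLE2. PCNA was the highest member, at 232, 233 and 227 FPKM in control, 223, 225 and 228 after S100A8, 229, 230 and 236 after S100A9, and 223, 222 and 241 after S100A8/S100A9. Each treated group overlapped control, while the S100A9 libraries all lay above the S100A8 libraries. MCM10, an initiation factor that helps to activate the helicase, was the lowest member. It read 10.1, 9.16 and 10.35 FPKM in control, 10.3, 8.36 and 11.2 after S100A8, 9.55, 9.97 and 11.8 after S100A9, and 11.3, 9.79 and 8.3 after S100A8/S100A9, with overlap on this scale. In normalised counts its S100A9 libraries all lay above control, as 6.25% of all genes did.

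**Figure D1:**
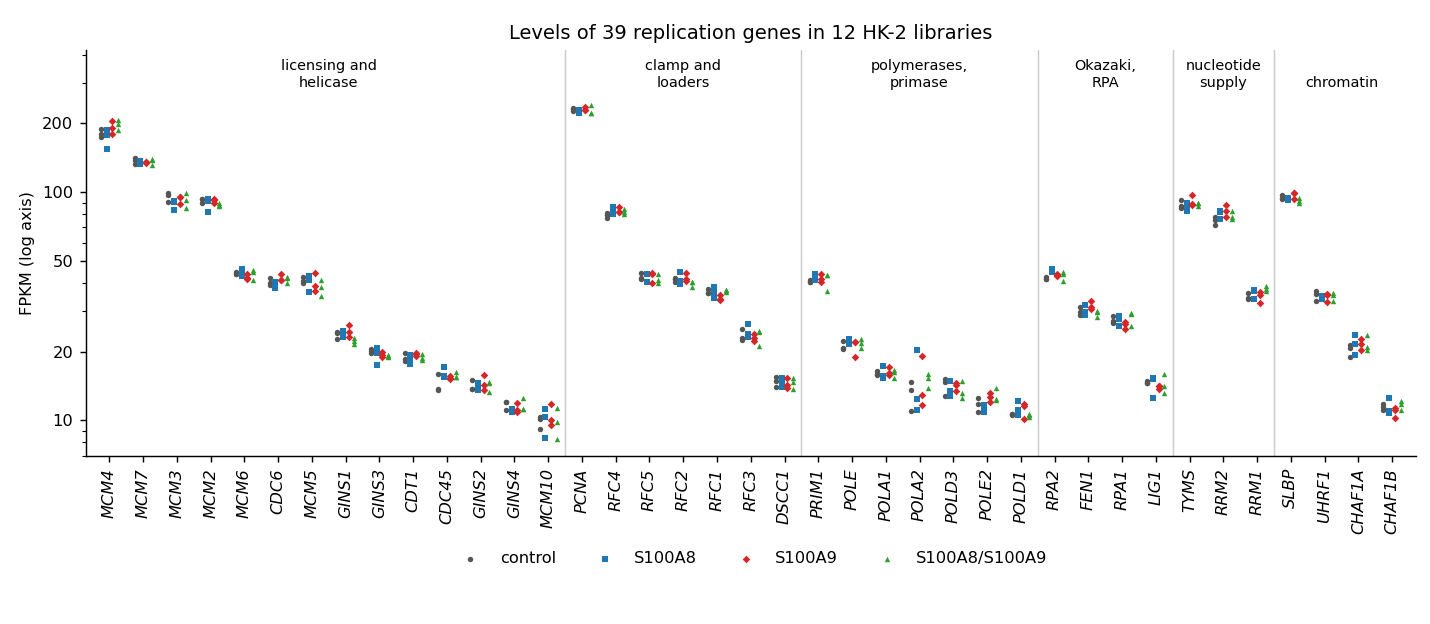
FPKM on a log axis for the 39 genes in order of role and level, with 1 point per library and a colour and symbol per group. The mean levels of the members range from 10 FPKM (MCM10) to 229 FPKM (PCNA). On this scale no treated group of either gene is separate from control.

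Among the helicase genes the 6 subunits of the MCM2-7 ring, which assemble in equal numbers, were not equal in FPKM. Over the 12 libraries MCM4 stood at 186 ± 14.4 FPKM (SD), MCM7 at 136 ± 3.08, MCM3 at 92.2 ± 5.10, MCM2 at 90.1 ± 3.43, MCM6 at 43.8 ± 1.51 and MCM5 at 39.9 ± 2.82, a 4.66-fold range. On this scale MCM4 exceeded MCM7, MCM7 exceeded MCM3 and MCM2 exceeded MCM6 in 12 of 12 libraries. MCM3 and MCM2 could not be ordered, since MCM3 was the higher in 7 of 12, and MCM6 exceeded MCM5 in 10 of 12. The lead of MCM4, and with it the 4.66-fold range, depended on the assigned gene length. The median implied length was 1840 bases for MCM4 and 2472 for MCM7. In normalised counts (CPM), which leave out length, their means were 340 and 336. There MCM4 lay below MCM7 in replicate 2 of every group and above it in the other libraries. The GINS genes were lower and closer together, with GINS1 at 23.6 ± 1.20, GINS3 at 19.5 ± 0.888, GINS2 at 14.2 ± 0.725 and GINS4 at 11.4 ± 0.549 FPKM, in the same order in 12 of 12 libraries. MCM4 read 181, 175 and 190 FPKM in control, 177, 154 and 187 after S100A8, 204, 191 and 179 after S100A9, and 208, 199.5 and 187 after S100A8/S100A9. The last 3 libraries overlapped those of control. CDC6, the loader of the ring, lay at 40.8 ± 1.62 FPKM, its partner CDT1 at 18.9 ± 0.727 and CDC45 at 15.4 ± 0.985.

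Clamp loaders followed a similar pattern. RFC4 was the highest subunit at 81.8 ± 2.73 FPKM, above RFC5 (42.4 ± 1.71) and RFC2 (41.2 ± 1.81), which changed places between libraries, RFC1 (36.1 ± 1.498) and RFC3 (23.6 ± 1.37). DSCC1, part of the alternative loader used for sister chromatid cohesion, was the lowest of this role at 14.6 ± 0.645. It read 15.5, 14.9 and 13.9 FPKM in control, 15.4, 14.5 and 14.05 after S100A8, 14.2, 15.25 and 13.85 after S100A9, and 14.65, 13.7 and 15.3 after S100A8/S100A9, with overlap throughout.

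Of the polymerase genes, the primase subunit PRIM1 stood at 41.4 ± 2.01 FPKM and was between 2.36 and 2.74 times POLA1, the catalytic subunit of the same complex, in each library. PRIM1 read 40.45, 41.3 and 40.2 FPKM in control, 41.05, 41.03 and 43.6 after S100A8, 41.7, 43.9 and 40.4 after S100A9, and 43.5, 43.3 and 36.7 after S100A8/S100A9; the library at 36.7 was the lowest of the 12. POLE stood at 21.5 ± 1.101, POLE2 12.1 ± 0.872, POLD3 13.9 ± 0.943 and POLD1, the catalytic subunit of polymerase delta and the lowest of this role, 10.9 ± 0.622 FPKM. POLD1 read 10.7, 10.66 and 10.6 FPKM in control, 10.5, 11.1 and 12.1 after S100A8, 11.6, 10.1 and 11.8 after S100A9, and 10.49, 10.66 and 10.4 after S100A8/S100A9. Its groups overlapped.

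On the lagging strand, the single-strand binding gene RPA2 stood at 43.4 ± 1.58 FPKM and RPA1 at 27.3 ± 1.41, with the flap nuclease FEN1 at 30.4 ± 1.44 and the ligase LIG1 at 14.3 ± 0.918. LIG1 read 14.5, 14.8 and 14.6 FPKM in control, 15.1, 15.3 and 12.55 after S100A8, 14.1, 14.2 and 13.6 after S100A9, and 14.1, 15.9 and 13.2 after S100A8/S100A9. The S100A9 libraries all lay below control on this scale, but not in normalised counts. In nucleotide supply, the thymidylate synthase gene TYMS lay at 88.5 ± 3.64 FPKM. It read 91.9, 85.55 and 87.0 in control, 82.6, 86.05 and 89.6 after S100A8, 87.8, 88.6 and 97.3 after S100A9, and 89.2, 89.26 and 87.1 after S100A8/S100A9, with overlap between the groups. RRM2, the S phase subunit of ribonucleotide reductase, lay at 79.2 ± 4.29 and RRM1, its large subunit, at 35.9 ± 1.77; RRM2 was 1.98 to 2.69 times RRM1 over the 12 libraries.

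SLBP, which binds the stem-loop of histone mRNA, led the chromatin genes at 94.2 ± 2.98 FPKM. It read 93.0, 97.4 and 94.0 in control, 92.99, 92.1 and 94.55 after S100A8, 93.7, 99.2 and 99.03 after S100A9, and 89.5, 94.4 and 91.1 after S100A8/S100A9, with overlap. UHRF1, which guides maintenance methylation, followed at 34.8 ± 1.23, with the histone chaperone subunits CHAF1A at 21.3 ± 1.48 and CHAF1B at 11.3 ± 0.613. CHAF1B, the lowest of this role, read 11.1, 11.7 and 11.4 FPKM in control, 10.9, 12.5 and 10.8 after S100A8, 10.2, 11.4 and 11.08 after S100A9, and 11.8, 12.1 and 11.1 after S100A8/S100A9, with overlap.

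FPKM depends on the gene length that the authors' pipeline assigned, and for some members that length moved between libraries. Lengths implied by the deposited counts and FPKM varied by 1.36-fold for POLA2, 1.27-fold for MCM4, 1.24-fold for MCM5 and MCM10 and 1.23-fold for LIG1, but by less than 1.16-fold for each of the other 34. POLA2, the regulatory subunit of polymerase alpha, had the widest spread, with a coefficient of variation (CV) of 20.9% in FPKM over 12 libraries and 12.8% within groups in CPM, counts scaled to a common library size (here after TMM). Its exons share 2012 bases with another gene of the table on the same strand, and its counts were not whole numbers in 100% of libraries. Exons of 9 members overlapped those of another gene in the table, 7 of them on the opposite strand, among them TYMS, which shares 967 bases with ENOSF1. The library protocol does not state that strand was kept, so it is not known whether reads of such pairs were told apart.

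Variation between replicates was small. The median within-group CV of the members in CPM was 4.39% (from 2.27% for RFC4 to 12.8% for POLA2), against 6.42% over all genes tested and 2.69% for the counting error alone at the members' depths. The median level of the members was 78.2 CPM, against 29.5 over all genes tested. The sets are therefore not matched for depth, here or in the shares below of estimates within 1.1-fold and of intervals within 0.32. Differences below are log2 differences of normalised counts, not of FPKM.

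S100A8 was compared with PBS to ask whether this subunit changes transcripts of tubule cells. Of the replication genes 0 of 39 passed the quasi-likelihood test of edgeR after adjustment by Benjamini-Hochberg, against 0.0074% of all genes tested, and the smallest adjusted p among them was 1.00. The median log2 difference was 0.00035, with 20 members above 0 and 19 below, against 0.00038 over all genes tested. With 1 of the 6 libraries left out, this median ran from -0.0058 to 0.020, the latter without S100A8 replicate 1. At an unadjusted p under 0.05 edgeR took 1 of the 39, a share of 2.56% against 3.53% of all genes, while DESeq2 and limma called 0 after adjustment. Each of the 39 estimates lay within 1.1-fold of control, as did 82% of all genes. The 95% interval of each lay within 0.32 of 0 on the log2 scale, as it did for 69.8% of all genes.

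The member with the smallest p after S100A8 was RPA2 (ENSG00000117748, chromosome 1 from 27891524 to 27914746 in GENCODE 29 on GRCh38). It read 64.2, 66.3 and 65.3 CPM in control and 70.5, 69.6 and 71.9 after S100A8. The S100A8 libraries all lay above control, but the log2 difference of 0.12 (SE 0.048, 95% interval 0.016 to 0.21) did not pass edgeR's test (adjusted p = 1.00). RFC4, a clamp loader subunit, read 89.98, 95.3 and 94.0 CPM in control and 97.9, 100.4 and 96.7 after S100A8. Its groups did not overlap either, with a log2 difference of 0.080 (interval -0.010 to 0.17). CDC45, the helicase cofactor, read 29.2, 25.6 and 25.3 CPM in control and 27.5, 31.2 and 29.02 after S100A8, a difference of 0.13 (interval -0.018 to 0.28) with overlapping groups; it was 0.20 without control replicate 1 and 0.082 without S100A8 replicate 2. The 2 groups did not overlap for 3 members, 7.69% against 8.54% of all genes. For 2 members (RFC4 and RPA2) all S100A8 libraries lay above control, as for 4.41% of all genes. For 1 (MCM5) all lay below, as for 4.13%.

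By role, 10 of the 14 licensing and helicase genes lay below 0 after S100A8, against 6727 of all 13512 genes tested. Their median was -0.042, with a range from -0.10 (GINS4) to 0.13 (CDC45). The 7 clamp genes had a median of 0.00084, the 7 polymerase genes 0.0056, the 4 Okazaki fragment and RPA genes 0.031, the 3 nucleotide supply genes 0.044 and the 4 chromatin genes -0.0061.

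S100A9 was set against PBS likewise. In this arm 0 of 39 replication genes passed edgeR's test, against 0.148% of all genes tested (20 genes), with a smallest adjusted p of 0.63. The median log2 difference was 0.023, and it was 0.0092 without S100A9 replicate 3. There were 24 members above 0 and 15 below, against 6745 and 6765 of all genes tested. At an unadjusted p under 0.05 there were 3 members, a share of 7.69% against 5.85% of all genes; DESeq2 and limma called 0 after adjustment. All 39 estimates lay within 1.1-fold, against 79.7% of all genes. Of the 39 intervals 38 lay within 0.32 on the log2 scale, against 68.7% of all genes. The exception was POLA2 (0.11, interval -0.17 to 0.38).

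RRM2 (ENSG00000171848, chromosome 2 from 10120698 to 10131419) had the smallest p in this arm. It read 227, 246 and 238 CPM in control, 237, 260 and 253 after S100A8, 245, 276 and 257 after S100A9, and 238, 258 and 243 after S100A8/S100A9. The S100A9 libraries overlapped control by 1 library, replicate 1 at 245. RRM2 was also the 1 member called in the test of the replicate number (adjusted p = 0.020 in edgeR). The log2 difference between S100A9 and control was 0.13 (SE 0.047, interval 0.037 to 0.23, adjusted p = 0.63 in edgeR), and 0.086 without S100A9 replicate 2. MCM5 (ENSG00000100297, chromosome 22 from 35400063 to 35425430), a subunit of the helicase ring, read 102.7, 100.7 and 99.9 CPM in control, 93.0, 92.7 and 97.6 after S100A9, 97.6, 95.9 and 95.3 after S100A8, and 101.9, 96.9 and 96.6 after S100A8/S100A9. Both single subunits gave values below the lowest control, with differences of -0.098 (interval -0.19 to -0.0090) after S100A9 and -0.071 (-0.16 to 0.019) after S100A8. These comparisons share the control libraries. On log2(FPKM + 1), where the assigned length enters, the S100A9 difference of MCM5 was -0.039. RFC4 read 99.9, 98.1 and 100.8 CPM after S100A9, above its 3 controls, a difference of 0.098 (interval 0.0088 to 0.19, adjusted p = 0.79 in edgeR).

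Without overlap were 5 members, 12.8% against 12% of all genes. All S100A9 libraries lay above control for 3 members (MCM10, RFC4 and RPA2), against 6.25% of all genes, and all lay below for 2 (MCM5 and RFC1), against 5.77%. Role medians ran from -0.0034 for the licensing and helicase genes to 0.056 for the nucleotide supply genes, with 0.047 for the polymerases, 0.029 for the Okazaki fragment and RPA genes, 0.024 for chromatin and 0.015 for the clamp genes.

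The S100A8/S100A9 preparation was then set against PBS. Again 0 of 39 replication genes passed edgeR's test, as did 0% of all genes tested, with a smallest adjusted p of 0.84 among the members. With 25 members above 0 and 14 below, against 6712 and 6799 of all genes tested, the median log2 difference was 0.013. Its sign rested on 1 library: it was -0.0064 without S100A8/S100A9 replicate 1, and 0.031 without replicate 3. On log2(FPKM + 1) it was -0.0039. An unadjusted p under 0.05 was reached by 1 member (2.56%) and by 5.6% of all genes, and neither DESeq2 nor limma called a member after adjustment. Of the 39 estimates 38 lay within 1.1-fold, against 80.1% of all genes. On the log2 scale 37 intervals lay within 0.32, against 69.0% of all genes. The exceptions were the polymerase genes POLA2 (0.11, interval -0.16 to 0.39) and POLE2 (0.16, interval -0.013 to 0.32). The upper end for POLE2 passed the limit, 0.3219 before rounding, by less than the printed digits show.

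RRM1 (ENSG00000167325, chromosome 11 from 4094707 to 4138876) read 106.9, 112.4 and 107.3 CPM in control and 121.7, 115.2 and 118.4 after S100A8/S100A9. The groups did not overlap, and the log2 difference was 0.12 (SE 0.049, interval 0.023 to 0.22, adjusted p = 0.84 in edgeR). After S100A8 alone it read 105.3, 116.2 and 115.0, and after S100A9 alone 111.1, 102.1 and 114.6, both overlapping control. POLE2, the second subunit of polymerase epsilon, read 19.0, 18.3 and 20.2 CPM in control and 20.5, 23.2 and 20.4 after S100A8/S100A9, without overlap (adjusted p = 0.90 in edgeR). CDC45 read 28.3, 28.7 and 30.5 CPM, a difference of 0.13 (interval -0.023 to 0.27). This difference was 0.20 without control replicate 1 and 0.087 without control replicate 3. Without S100A8/S100A9 replicate 2 the difference in POLE2 went from 0.16 to 0.099. Groups did not overlap for 4 members, 10.3% against 10.7% of all genes. POLE2 and RRM1 were the 2 members with all S100A8/S100A9 libraries above control (5.3% of all genes), and MCM2 and GINS3 the 2 with all below (5.4%).

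**Figure D2:**
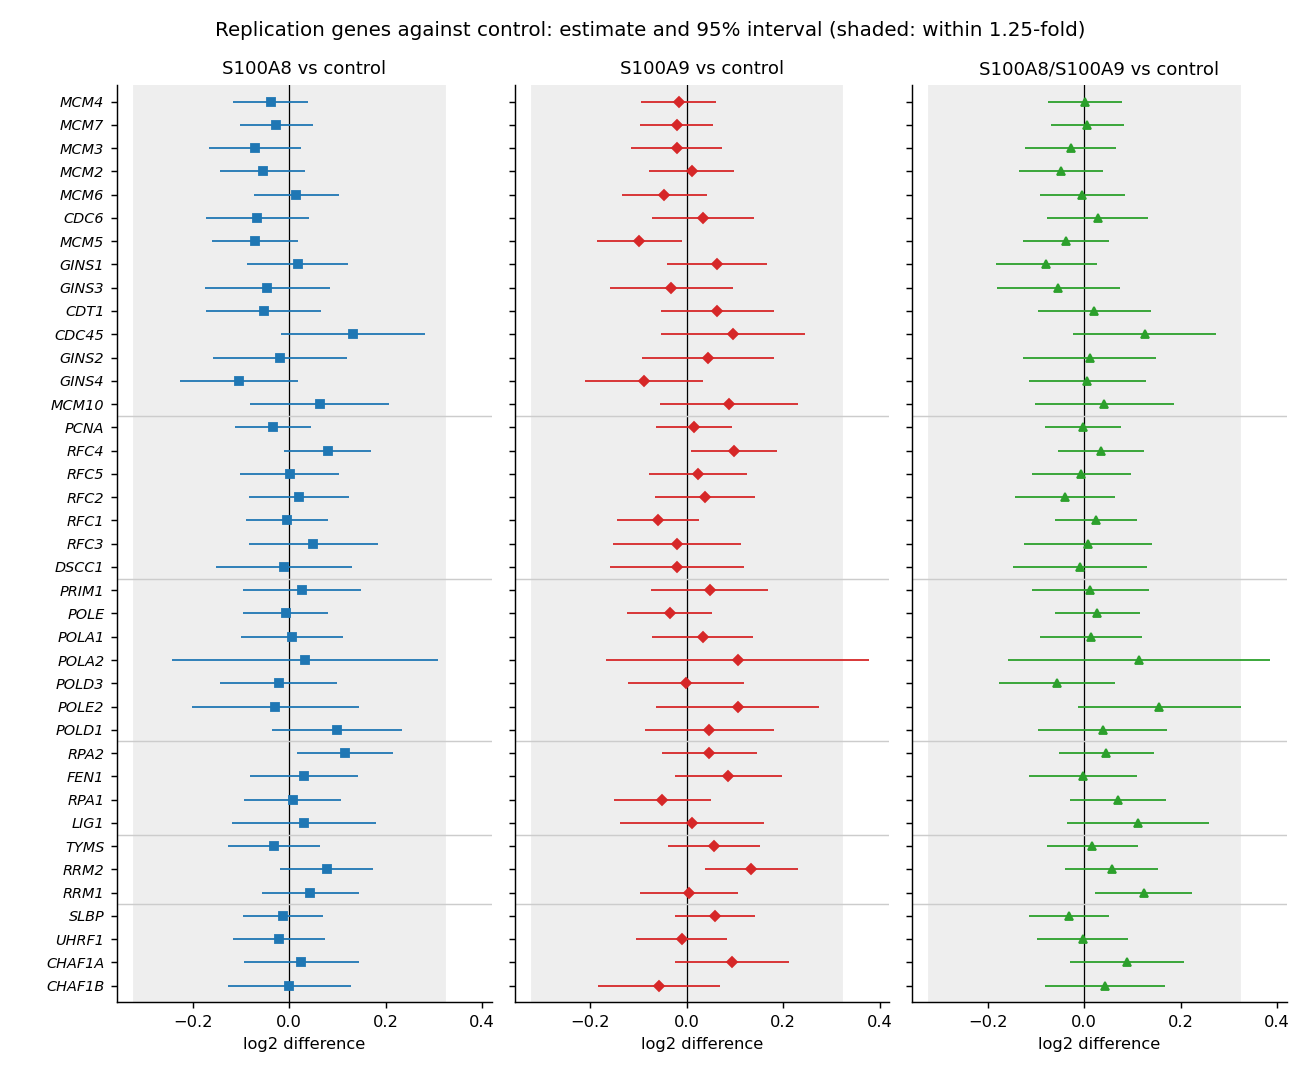
Estimated log2 difference from control (point) and its 95% interval (line) for each of the 39 genes in the 3 treated arms, with grey shading up to 0.32 on either side of 0. The points scatter on both sides of 0, and the widest intervals are those of POLA2, which reach 0.38 after S100A9 and 0.39 after S100A8/S100A9.

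**Figure D3:**
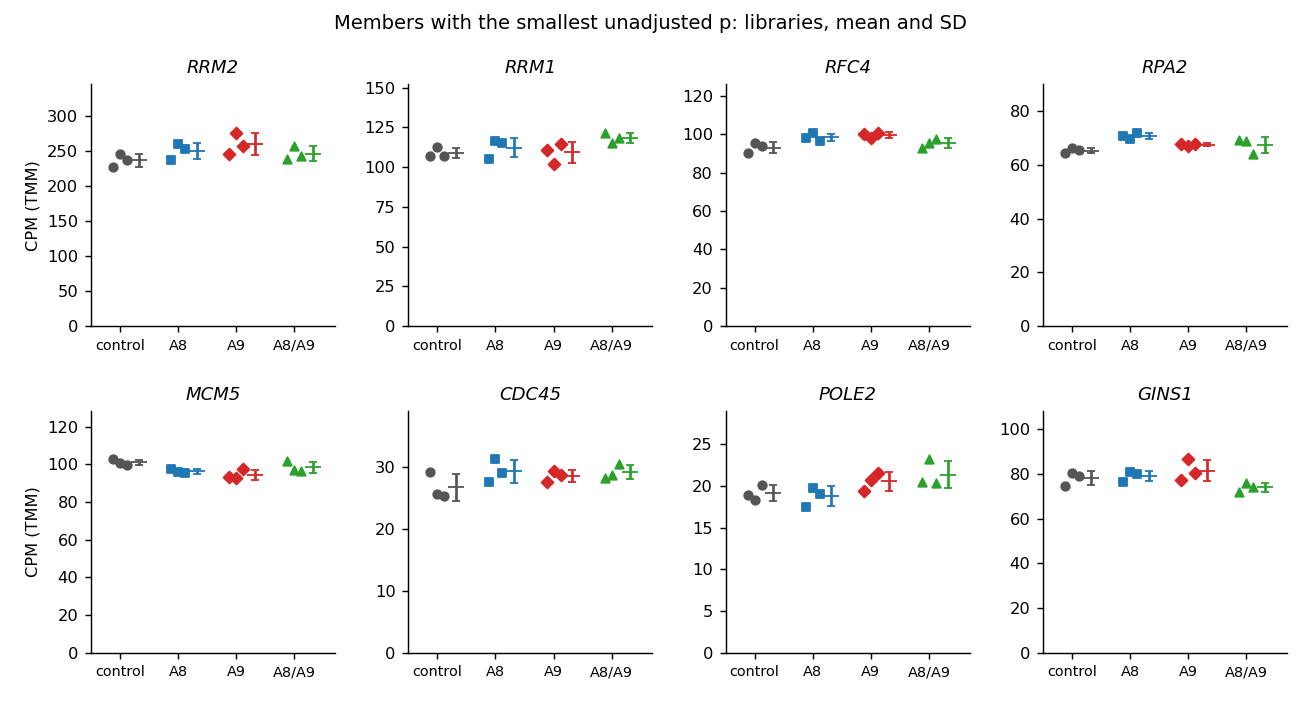
Normalised CPM of 8 members: those with the 3 smallest p in an arm against control, and GINS1. Not all of these p were under 0.05 before adjustment. Each panel has 1 point per library with the group mean and SD (n = 3) beside it, on axes that start at 0. A8, A9 and A8/A9 stand for the treated groups. The difference in RRM2 between control (237 ± 9.49) and S100A9 (260 ± 15.7) is small beside its level.

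In a single test over the 4 groups, 0 of 39 members passed edgeR's quasi-likelihood test, against 0.222% of all genes. None reached an unadjusted p under 0.05, while 5.91% of all genes did; the lowest adjusted p was 0.86, for RRM2.

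The treated groups were also compared with each other. Between S100A9 and S100A8, 0 of 39 members passed edgeR's test (0.185% of all genes) and 0 had an unadjusted p under 0.05 (7% of all genes), with a median of 0.020 and a range from -0.070 to 0.13. Between S100A8/S100A9 and S100A8, 0 of 39 passed (0% of all genes) and 1, POLE2, had an unadjusted p under 0.05 (4.43% of all genes). Between S100A8/S100A9 and S100A9, 0 of 39 passed (0.252% of all genes), and 5 members, 12.8%, had an unadjusted p under 0.05, against 7.15% of all genes. DESeq2 and limma called 0 members in each of these 3 comparisons. The 5 were RRM1 (log2 difference 0.12), RPA1 (0.12) and RFC1 (0.085), which were higher after S100A8/S100A9, and GINS1 (-0.14) and SLBP (-0.089), which were lower; none had an adjusted p below 0.54 in edgeR. GINS1, a subunit of the helicase activator, read 77.2, 86.6 and 80.7 CPM after S100A9 and 71.9, 75.9 and 74.3 after S100A8/S100A9, without overlap, while control cells, at 74.6, 80.4 and 79.4, overlapped both. CDC6 read 104.0, 100.8 and 108.9 CPM in control, 100.8, 96.6 and 102.2 after S100A8, 112.3, 102.9 and 106.3 after S100A9, and 111.9, 97.5 and 110.1 after S100A8/S100A9. Its S100A9 libraries all lay above its S100A8 libraries, by 0.10 on the log2 scale (interval -0.0053 to 0.21).

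S100A9 libraries all lay above S100A8 for 2 members (CDC6 and PCNA, against 6.41% of all genes) and below for 1 (RPA2, against 6.09%). These were 3 in all, 7.69% of the members against 12.5% of all genes. S100A8/S100A9 libraries all lay above S100A8 for 2 (GINS4 and POLE2, against 4.45%) and below for 2 (GINS1 and RPA2, against 4.55%). These were 4 in all, 10.3% of the members against 9% of all genes. Against S100A9, the S100A8/S100A9 libraries lay above for 3 (GINS4, RFC1 and RRM1, against 5.94%). They lay below for 5 (MCM2, GINS1, RFC2, RFC4 and FEN1, against 6.53%). These were 8 in all, 20.5% of the members against 12.5% of all genes. A test of the replicate number over the 12 libraries called 1 of 39 members, RRM2, against 2.59% of all genes. At an unadjusted p under 0.05 it took 7 of 39, against 14.1% of all genes.

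A further 51 genes of replication and S phase outside the members, such as the ORC subunits, the S phase cyclins and the E2F factors, gave similar values. In each of the 3 arms 0 of 51 passed edgeR's test, and their median log2 differences were 0.0049 after S100A8, 0.012 after S100A9 and 0.014 after S100A8/S100A9. At an unadjusted p under 0.05 they numbered 2, 0 and 3, or 3.92%, 0% and 5.88% of the list, against 3.53%, 5.85% and 5.6% of all genes. Chosen after its values were seen, DBF4, the activator of the replication kinase CDC7, stood at 48.4 ± 1.29 CPM in control and 55.5 ± 2.23 after S100A8/S100A9 (SD, n = 3), a log2 difference of 0.20 (adjusted p = 0.63 in edgeR).

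Mitotic genes were read in the same libraries for comparison. In the mitotic list, 31 of 32 members lay above 0 after S100A8 with a median of 0.11, and 17 had an unadjusted p under 0.05, 53.1% against 3.53% of all genes and 2.56% of the replication genes. After S100A8/S100A9 30 of 32 lay above 0 with a median of 0.085, and 13 had an unadjusted p under 0.05, 40.6% against 5.6% of all genes. After S100A9 the median was 0.024 with 20 of 32 above 0, and 2 had an unadjusted p under 0.05 (6.25%, against 5.85%). Of all 13512 genes tested, 6785 lay above 0 after S100A8, 6712 after S100A8/S100A9 and 6745 after S100A9. After adjustment over all genes 0 of 32 passed edgeR's test in each arm. The mitotic pattern was known from earlier work on these libraries, all arms share the controls, and the difference between the lists was not tested.

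Summed over its genes, the replication list stood at 4350, 4314 and 4340 CPM in control, 4214, 4333 and 4378 after S100A8, 4337, 4364 and 4410 after S100A9, and 4414, 4357 and 4320 after S100A8/S100A9. These sums overlapped between all groups. For the mitotic list the sums were 4439, 4483 and 4352 CPM in control, 4631, 4854 and 4678 after S100A8, 4519, 4509 and 4449 after S100A9, and 4715, 4705 and 4659 after S100A8/S100A9. Here the libraries of S100A8 and of S100A8/S100A9 lay above those of control and S100A9. In group means, the replication sum was 4335 ± 18.3 in control and 4308 ± 84.9 after S100A8, and the mitotic sum 4425 ± 66.7 and 4721 ± 117 (SD, n = 3). CPM are shares of a library, so that fewer cells in a phase and less RNA per cell cannot be told apart, and cell number was not measured.

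**Figure D4:**
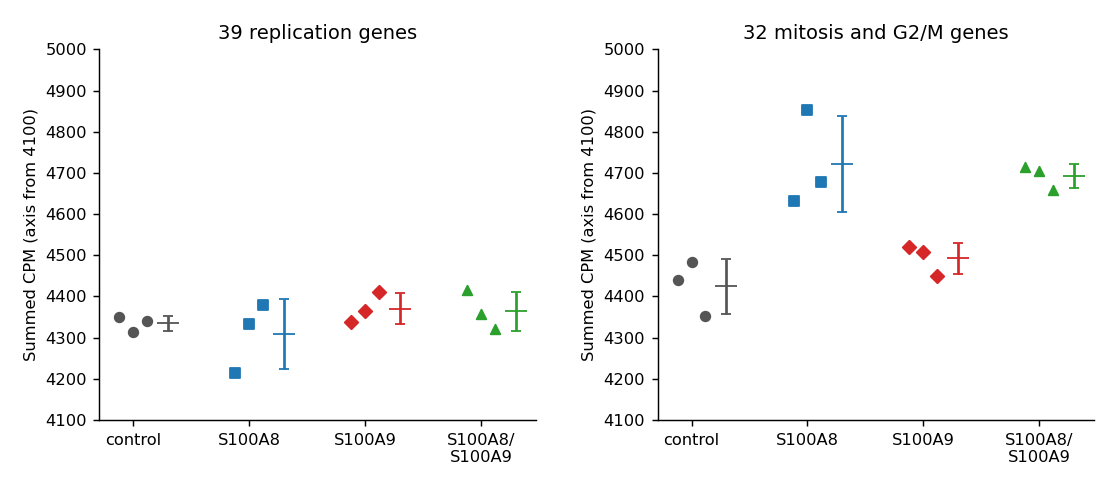
Summed normalised CPM of the 39 replication genes (left) and of 32 mitotic genes (right), 1 point per library with the group mean and SD (n = 3), on axes that do not start at 0. Replication sums overlap between the groups, whereas the lowest mitotic sum after S100A8 or S100A8/S100A9 is 4631 and the highest in control or after S100A9 is 4519.

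Genes that restrain the cycle were measured beside the members. CDKN1A, the p53-induced inhibitor of cyclin-dependent kinases, stood at 117 FPKM over the 12 libraries, CDKN2A at 108 and RB1 at 33.5. Of 12 inhibitor and RB family genes, 0 passed edgeR's test in any of the 3 arms, and 2, 1 and 2 had an unadjusted p under 0.05 after S100A8, S100A9 and S100A8/S100A9. These are 16.7%, 8.33% and 16.7% of the list, against 3.53%, 5.85% and 5.6% of all genes. Their median log2 differences were 0.049, 0.068 and 0.034. Chosen after their values were seen, CDKN1C was at 28.3 ± 2.39 CPM in control and 32.9 ± 2.63, 33.9 ± 1.78 and 33.3 ± 2.40 in the 3 arms, and CDKN2C was at 11.4 ± 0.139 in control and 13.8 ± 0.535 after S100A8 (SD, n = 3), with adjusted p of 0.37 or more in edgeR.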

How the data were processed

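RNA was measured in 12 libraries, 3 in each of 4 groups, which were assigned from the sample descriptions. Per the file headers, the authors deposited a count and an FPKM value per gene in every library; the authors deposited estimated counts (not normalised), of which 12% are not whole numbers. FPKM are the authors' scaling to gene length and depth, per the file headers. Which aligner, counter and annotation made them is not given in the sources used here. Mouse builds stand in the submitters' processing notes, although the IDs are human Ensembl IDs. Gene coordinates are from GENCODE 29 on GRCh38, promoters from RefSeq.

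Counts were rounded to whole numbers, and edgeR 4.0.16 (R 4.3.3) was used for the tests: filterByExpr (minimum count 10) left 13512 genes with all 39 members, libraries were scaled by TMM, and a robust quasi-likelihood model with 1 coefficient per group was fitted to all 12 libraries (8 residual degrees of freedom, common biological CV 4.65%). Tests were two-sided, adjusted by Benjamini-Hochberg over all genes, with a threshold of 0.05; intervals are 95%. A count of 0 allows up to 3 counts, 0.189 CPM in the smallest library, for counting error only. Alternatives used DESeq2 1.42.0, limma 3.58.1 on log2(FPKM + 1) with a mean FPKM of at least 0.5, other scalings, filters, subsets and a replicate block. The fit was tested on simulated data. Members and lists were chosen with earlier results of these data known. Values per library are given for the 3 members with the smallest p per arm and for replicate number, and for the highest and lowest member of each role by FPKM; other genes named outside the members were chosen after their values were seen.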

Additional observations from a re-analysis of the deposited data

How the results depend on the processing

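In the 7 tests between groups, the number of replication genes passing was 0 under all 87 alternatives: the replicate block, DESeq2's size factors or its Wald test, all genes kept without a filter, the 6 libraries compared alone, limma on log2(FPKM + 1) and each library left out (0 to 0). The 9 differences given for the members with the smallest p kept their direction under all 108 alternatives, with 0 past the threshold; the lowest adjusted p was 0.097, for RRM2 after S100A9 with the replicate block (edgeR). Differences that moved by over 1.5 times with 1 library left out were those of CDC45 (both arms), POLE2 and RRM2. Size factors of DESeq2 shifted the median of all genes by at most 0.0016 on the log2 scale. Over all genes, the count of calls after S100A9 was 20 and ranged from 11 (without control replicate 2) to 42 (replicate block). Between S100A8/S100A9 and S100A9 it was 34 and ranged from 13 (limma on log2(FPKM + 1)) to 71 (replicate block).

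The labels do not say what a replicate number marks, and the numbers did not meet the condition set for pairing, a correlation over 0.1 in every same-numbered pair. The correlations of their deviations ran from -0.074 to 0.15 over all genes and from -0.19 to 0.55 over the members, where 6 of 6 pairs of replicate 2, 5 of 6 of replicate 1 and 3 of 6 of replicate 3 were over 0.1. As a hint from the data, 9 of 12 libraries correlated best with a library of their own number. With the replicate block 0 members passed between groups. The test of the replicate number itself called 350 genes (2.59%) and 1 member, RRM2 (adjusted p = 0.020 in edgeR), against 7 members at an unadjusted p under 0.05. With a library left out the count of genes ranged from 132 (without S100A9 replicate 2) to 516 (without S100A8/S100A9 replicate 1); it was also lower by over 1.5 times without control replicate 2 (145), S100A9 replicate 1 (169) or S100A8/S100A9 replicate 2 (220). The count of members ranged from 0 to 1. It was 0 without control replicate 1 or 2, S100A8 replicate 2, S100A9 replicate 1 or 2, or S100A8/S100A9 replicate 2. The cause was not tested.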
